A study of Homo sapiens with 4 samples.

Results

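The numbered zinc finger (ZNF) genes of human chromosome 19 were taken as all protein-coding genes of that chromosome whose symbol is ZNF, a number and at most 1 letter, which gave 246 of the 19974 protein-coding genes on chromosomes 1 to 22 and X. They were split into clusters wherever neighbouring ZNF genes lay over 500 kb apart. CTCF binding at their ends, inside them and between them was read from a chromatin immunoprecipitation and sequencing (ChIP-seq) peak list of asynchronously growing MDA-MB-435 cells, an established melanoma line, made with a rabbit antibody against CTCF. The series has 2 untreated asynchronous samples and 2 samples of mitotic cells, blocked with thymidine and then nocodazole, for which the antibody was raised against the pT431 form of CTCF. Only the peaks of asynchronous replicate 1 were used; the remaining 3 samples were not analysed here. No value therefore has a replicate check, no test between conditions was possible, and every interval covers counting error only.

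ZNF genes of chromosome 19 mostly encode DNA-binding proteins with tandem C2H2 zinc fingers, many of them with a KRAB domain that recruits the corepressor TRIM28 to silence transposable elements. The family grew by repeated tandem duplication, so that the genes stand side by side in clusters and neighbours are often close copies. The genes were taken by symbol, and their proteins were not examined here. In other human cells the clusters are known for broad H3K9me3 over the gene bodies. CTCF is itself a zinc finger protein and, with cohesin, marks insulators and the anchors of chromatin loops.

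The 246 genes formed 20 runs, of which 8 held 10 or more genes and together 222 genes, 3 held 3 to 9 genes, 2 held 2 genes and 7 were single genes. The widest gap kept inside a cluster was 441.7 kb, between ZNF581 and ZNF787, and the narrowest gap that split clusters was 519.7 kb, between ZNF835 and ZNF264. The list held 42462 peaks of equal width from 19210460 tags, 1479 of them on chromosome 19 and 185 inside the clusters. Peak strength is given as normalised tags, the authors' tag count per peak scaled to 10000000 tags; the median of the whole list was 20 and the lowest value 6.51.

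The strongest peak at the outer start of a ZNF gene of chromosome 19 was at ZNF554, and its promoter is shown because the peak lay almost on the start site. The peak held 99.7 normalised tags (95% Poisson interval 86.3 to 115) and its centre was 86 bp from the annotated start. The promoter below, from RefSeq (GRCh38.p14, the same chromosomes as the files' hg38), runs from 250 bases before the start to 50 after it. The capitals mark a match to CCNNNAGNNGGC, a reduced form of the CTCF core motif, searched on both strands; 12.35% of all 22156 promoters of protein-coding genes hold at least 1 match.

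ZNF554 (chr19:2819618-2819917, + strand): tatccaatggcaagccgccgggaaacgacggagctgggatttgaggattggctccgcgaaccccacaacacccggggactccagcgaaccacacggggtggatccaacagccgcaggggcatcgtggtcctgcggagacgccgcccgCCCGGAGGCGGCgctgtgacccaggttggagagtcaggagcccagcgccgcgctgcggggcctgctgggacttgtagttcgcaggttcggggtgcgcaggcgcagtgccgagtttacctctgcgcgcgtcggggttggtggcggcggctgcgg

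In the cluster from ZNF175 to ZNF331, 8 genes carried the match at nearly the same place, 114 to 129 bases before a start site, and 3 of them had a peak centre in the promoter. The 40-base stretches are printed on the strand of the match, which points away from the gene in all 9 promoters, with the match again in capitals. The first 3, ZNF611, ZNF765 and ZNF761, had peaks of 18.5 (13.1 to 25.9), 18.2 (12.7 to 25.3) and 9.63 (5.55 to 14.8) normalised tags, all under the list median. The other 5 genes, among them ZNF808, which in human cells acts on retroviral elements, had none in the promoter. These genes were picked after their values were seen.

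ZNF611 (chr19:52735145-52735184, + strand): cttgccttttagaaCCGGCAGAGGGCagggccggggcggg
ZNF765 (chr19:53395014-53395053, - strand): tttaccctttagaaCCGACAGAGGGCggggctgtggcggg
ZNF761 (chr19:53431841-53431880, - strand): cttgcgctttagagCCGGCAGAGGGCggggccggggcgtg
ZNF808 (chr19:52527525-52527564, - strand): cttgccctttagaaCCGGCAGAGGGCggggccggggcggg
ZNF701 (chr19:52570144-52570183, - strand): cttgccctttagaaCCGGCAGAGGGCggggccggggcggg
ZNF83, lower start (chr19:52638456-52638495, + strand): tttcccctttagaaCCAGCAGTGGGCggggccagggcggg
ZNF83, upper start (chr19:52690590-52690629, + strand): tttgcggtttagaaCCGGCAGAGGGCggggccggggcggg
ZNF468 (chr19:52857723-52857762, + strand): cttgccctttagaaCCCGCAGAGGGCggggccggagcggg
ZNF525 (chr19:53365577-53365616, - strand): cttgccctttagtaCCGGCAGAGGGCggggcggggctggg

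The 9 stretches shared between 31 and 40 of their 40 bases over 35 pairs of genes and start sites, with a median of 35. ZNF611, with a peak, and ZNF808, without one, differed at 2 of 40 bases, and ZNF808 and ZNF701, both without, were identical. The match of ZNF611 and ZNF761, which had peaks, was letter for letter that of ZNF808, ZNF701, ZNF525 and the upper start of ZNF83, which had none. The nearest peak lay 166399 bp from an end of ZNF808, 135003 bp from ZNF701, 44656 bp from ZNF83, 89467 bp from ZNF468 and 8467 bp from ZNF525. Reads from such close copies can be hard to place, and how that bears on these genes was not tested.

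A further pair of copies was found in the cluster from ZNF264 to ZNF446. At ZNF587B, 18.0 normalised tags (12.7 to 25.3) were centred 1 bp from the start, whereas ZNF814 had no peak in its promoter or within 1 kb of an end. The stretch around the match was identical in both, and the longest run shared by their promoters was 73 bases. The start site shown for ZNF814 is inside its annotated span, and 12.2 normalised tags were found elsewhere inside that span, 1575 bp from its outer start. This pair, too, was picked after its values were seen. ZNF460 (12.8 normalised tags) and ZNF256 (18.7) carried other matches under their peaks. The 4 stretches, again on the strand of the match, are set beside each other to show how ZNF460 and ZNF256 differ from the first pair.

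ZNF587B (chr19:57830263-57830302, - strand): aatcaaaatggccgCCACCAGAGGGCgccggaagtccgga
ZNF814 (chr19:57889029-57889068, + strand): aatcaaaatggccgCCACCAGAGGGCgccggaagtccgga
ZNF460 (chr19:57279951-57279990, + strand): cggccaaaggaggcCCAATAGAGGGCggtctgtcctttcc
ZNF256 (chr19:57947855-57947894, + strand): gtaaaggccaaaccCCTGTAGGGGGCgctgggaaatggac

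Few of the ZNF genes had CTCF at their ends. Of the 246, 41 had a peak centre within 1 kb of an annotated end (16.7%, Clopper-Pearson 95% interval 12.2 to 21.9), where 28.2% of all protein-coding genes had one. The share was 27.4% (24.9 to 30) of the 1205 other coding genes of chromosome 19 and 32.3% (26.7 to 38.3) of the 263 numbered ZNF genes of other chromosomes, and neither interval, counted over either end, overlapped that of the chromosome 19 ZNF genes. The 41 genes had 39 distinct peaks, and no gene had a peak at both ends. A further 33 peaks lay inside ZNF genes, where 23 genes held at least 1, and 187 of the 246 genes had neither. Counts of genes with an inside peak or with neither are not given for other coding genes. The 23 and the 187 therefore cannot be called low or high. The shares of genes with an end peak describe 1 library and were not tested against each other.

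The other genes that stand within the clusters had a similar share. Of 96 such coding genes, 15 had a peak at an end (15.6%, 9.02 to 24.5), against 315 of 1109 coding genes of chromosome 19 outside the clusters (28.4%, 25.8 to 31.2). Only 16 of the 96 had a symbol of the zinc finger families (ZFP, ZSCAN, ZIM, ZIK, ZKSCAN or a joined ZNF symbol), and 2 of those 16 had a peak. For 2 ZNF genes the end peak lay at another coding gene's end as well, so such peaks count on both sides. The shares depended on the distance allowed. Within 250 bp of an end, 11.0% of the ZNF genes (7.36 to 15.6) and 10.9% of the other coding genes of chromosome 19 (9.17 to 12.8) had a peak. Within 10 kb the shares were 39.4% (33.3 to 45.8) for the ZNF genes and 74.1% (71.5 to 76.6) for the others, and within 100 kb 76.0% (70.2 to 81.2) and 97.01% (95.9 to 97.9). The nearest peak lay a median of 18.3 kb from a ZNF gene end, against 3.51 kb for other coding genes of chromosome 19 and 5.87 kb for numbered ZNF genes of other chromosomes.

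**Figure D1:**
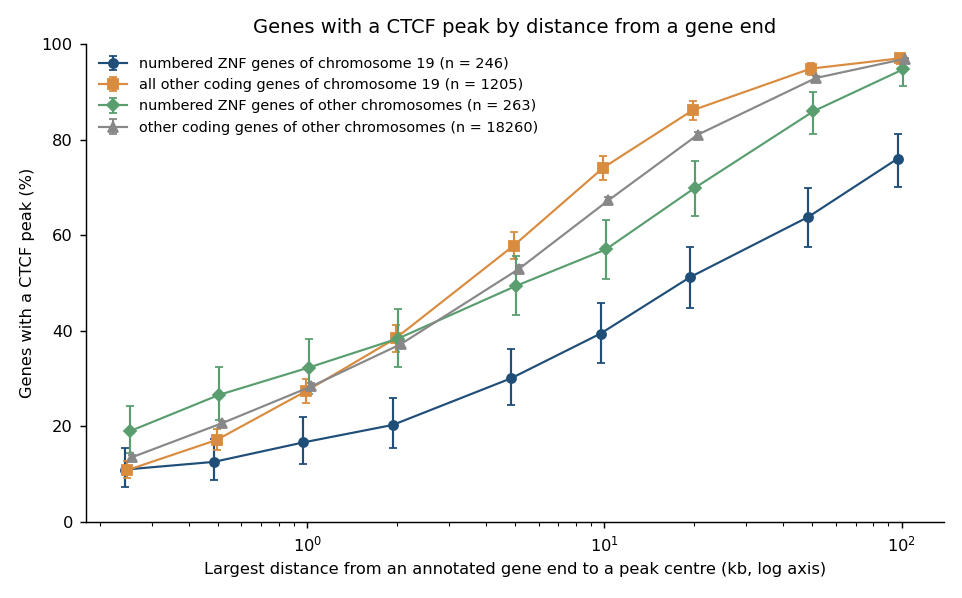
Share of genes (%, vertical axis, with 95% Clopper-Pearson intervals) that had a CTCF peak centre within the distance on the horizontal axis (kb, log scale) of either annotated end, for 4 sets of coding genes. The chromosome 19 ZNF genes and the other coding genes of that chromosome start together at 250 bp (11.0% and 10.9%) and are apart at 10 kb (39.4% and 74.1%).

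Length classes gave different pictures. The ZNF genes had a median length of 23.15 kb, against 12.8 kb for other coding genes of chromosome 19 and 24.7 kb for numbered ZNF genes elsewhere. Among genes shorter than 10 kb, 9 of 28 ZNF genes of chromosome 19 had an end peak (32.1%, 15.9 to 52.4), against 112 of 471 other coding genes of the chromosome (23.8%, 20 to 27.9). Of those 9 ZNF genes, ZNF772, ZNF416, ZNF551, ZNF256 and ZNF324 stand in the cluster from ZNF264 to ZNF446. Length and cluster were not separated. From 10 to 20 kb the counts were 13 of 71 (18.3%, 10.1 to 29.3) and 94 of 335 (28.1%, 23.3 to 33.2). From 20 to 40 kb they were 17 of 106 (16.0%, 9.63 to 24.4) and 79 of 238 (33.2%, 27.2 to 39.6). Of ZNF genes of 40 kb or longer, 2 of 41 had an end peak (4.88%, 0.596 to 16.5), against 45 of 161 (28.0%, 21.2 to 35.6).

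The peaks at ZNF gene ends were mostly weak. Their median was 14.3 normalised tags (range 7.55 to 114, 39 peaks), against 32.5 at the ends of other coding genes of chromosome 19 (7.55 to 233.2, 297 peaks) and 15.9 at numbered ZNF genes of other chromosomes (89 peaks). A value at or above the list median was reached by 10 of 39 peaks at the ZNF genes (25.6%, 13.0 to 42.1), 191 of 297 at the other genes of chromosome 19 (64.3%, 58.6 to 69.8) and 42 of 89 at ZNF genes elsewhere (47.2%, 36.5 to 58.1). Other coding genes inside the clusters had a median of 27.05, with 8 of 14 peaks at or above the list median (57.1%, 28.9 to 82.3). All coding genes had a median of 22.4, with 53.4% (52.1 to 54.8) at or above it. The local background, the tags expected in a peak from the surrounding 10 kb, had a median of 1.44 at the ZNF gene ends, against 2.00 at other genes' ends on chromosome 19. The median fold over that background was 10.6 and 14.8. The focus ratio, which scores how well the tags of each strand sit on their proper side of the peak centre, had a median of 0.776 and 0.846. What part the background or the shape of the peaks has in the lower tag counts was not tested.

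**Figure D2:**
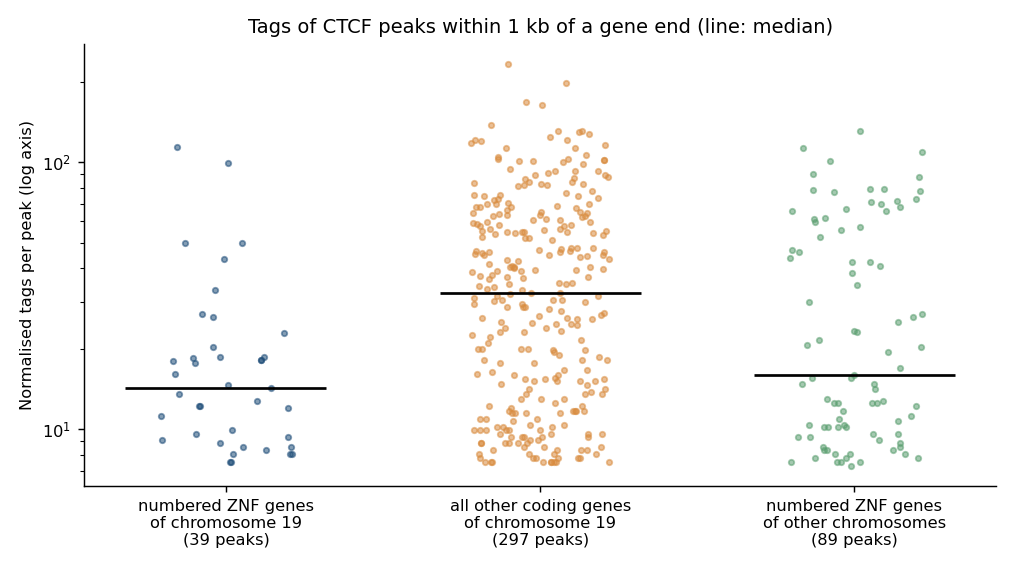
Normalised tags (vertical axis, log scale) of each distinct CTCF peak within 1 kb of an end of the chromosome 19 ZNF genes, of other coding genes of chromosome 19 and of numbered ZNF genes of other chromosomes; points are peaks, spread sideways for display, and lines are medians. Most ZNF peaks of chromosome 19 sit low, around a median of 14.3, and 2 stand near 100, at ZNF653 and ZNF554.

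Where the strand was known, the peaks were on the start side. Strand was given by the RefSeq promoter table for 216 of the 246 genes and for 38 of the 41 with an end peak, and in 34 of these 38 the peak was nearer to the start (89.5%, 75.2 to 97.1). The share was 65.9% (60.0 to 71.5) among other coding genes of chromosome 19 with an end peak and 92.9% (84.1 to 97.6) among ZNF genes of other chromosomes. Other coding genes of other chromosomes had 80.9% (79.65 to 82.05), which lies inside the interval of the chromosome 19 ZNF genes. Counted at annotated starts alone, inner ones included, 37 of 216 ZNF genes of chromosome 19 had a peak within 1 kb (17.1%, 12.4 to 22.8), against 208 of 969 other coding genes of the chromosome (21.5%, 18.9 to 24.2) and 70 of 214 ZNF genes of other chromosomes (32.7%, 26.5 to 39.4). At starts the intervals of the chromosome 19 ZNF genes and of the other genes of that chromosome overlapped. Over all coding genes the share at starts was 4230 of 15813 (26.75%, 26.06 to 27.45), above the interval of the chromosome 19 ZNF genes. The 4 exceptions, with the peak at the far end, were ZNF653, ZNF574, ZNF575 and ZNF324. The strongest of all peaks at a ZNF gene end was one of them: at ZNF653, 114 normalised tags (99.4 to 130) lay 675 bp beyond the far end of the gene, with a second peak of 61.9 inside it. ZNF574 had 27.1 normalised tags (20.2 to 35.5) 219 bp from its far end, and ZNF575 had 12.2 (7.59 to 18.0) 434 bp from it.

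Among peaks within 1 kb of a gene's outer start, the strongest after ZNF554 were at ZNF616 and ZNF329. Both held 50.0 normalised tags (40.5 to 61.0), centred 571 bp from the start of ZNF616 and 136 bp from that of ZNF329. ZNF865 followed with 43.5 (34.9 to 54.1), ZNF491 with 33.1 (25.7 to 42.5) and ZNF20 with 26.3 (19.8 to 34.9). ZNF274, whose protein brings the histone methyltransferase SETDB1 to the 3′ ends of ZNF genes, had 22.9 (16.6 to 30.8) at 981 bp from its start. ZNF180 had 20.3 (14.4 to 27.8) 17 bp from its start, and apart from these genes, ZNF554, ZNF653 and ZNF574, all end peaks were below the list median. ZNF221 and ZNF256 had 18.7 each, and ZNF772 17.7, ZNF284 16.1, ZNF551 14.6 and ZNF763 14.3; strand was not given for ZNF221 and ZNF763. Their Poisson intervals overlap one another and that of ZNF180, so no order among these 7 genes can be read.

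Only 2 peaks were shared by a pair of ZNF genes. ZNF829 and ZNF568 stand head to head, and 1 peak of 18.2 normalised tags (12.7 to 25.3) lay 145 bp from the start of ZNF829 and 104 bp from the start of ZNF568, whose mouse counterpart silences a placental Igf2 transcript. The other shared peak, of 8.85 (5.16 to 14.2), lay between the far end of ZNF324 at 708 bp and the start of ZNF446 at 208 bp. Peaks between neighbouring ZNF genes of a cluster were found in 58 of 213 gaps (27.2%). All 133 peaks centred in a gap were counted here, those within 1 kb of a ZNF gene end included. End peaks centred inside a ZNF gene were not counted. The gap between ZNF829 and ZNF568 therefore stands as one without a peak, since their shared peak is centred inside ZNF568. Divergent neighbours, with their starts towards each other, had a peak in 11 of 25 gaps (44%), convergent ones in 10 of 36 (27.8%) and neighbours on the same strand in 28 of 107 (26.2%). The median gap was 21.0 kb, 28.4 kb and 13.5 kb in these 3 kinds, and strand was not known at 45 gaps. No share over gaps between other coding genes and no intervals are given. The shares of gaps therefore cannot be called low or high, and the kinds were not tested against each other. Peaks at other coding genes within a gap count as well.

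The promoters with a peak held the CTCF match more often than those without. Of 19 ZNF promoters with a peak centre inside the 300 bases, 9 had a match (47.4%, 24.5 to 71.1), against 19 of 249 without a peak centre (7.63%, 4.66 to 11.7). For all coding genes the shares were 33.5% (31.4 to 35.7) and 10.4% (10 to 10.85). The 9 promoter peaks over a match had a median of 18.2 normalised tags (8.07 to 99.7), and the 10 without a match 11.45 (8.59 to 20.3). The ranges overlap, and several of these genes are copies of each other, so they are not independent. Of the 27 ZNF genes with a match in a promoter, 8 had a peak within 1 kb of an end. With or without a match, the share was 16.7% of all ZNF genes of chromosome 19 and 28.2% of all protein-coding genes. No share of all coding genes with a match is given, so the count of 8 cannot be called low or high. A match is a description of the letters, and a missing match says only that they were not in the window. The ZNF promoters had a median of 60.0% G and C, against 64.3% in other coding genes of chromosome 19, and a median of 20 and 21 CpG sites.

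The clusters as a whole were poor in CTCF peaks. They covered 15.8 Mb and held 11.7 peaks per Mb (95% Poisson interval 10.1 to 13.5), against 32.7 (30.9 to 34.5) over the remaining 39.6 Mb of chromosome 19. Without the longest cluster, ZNF101 to ZNF254, the density inside was 15.8 (13.6 to 18.3). The density of coding genes, ZNF genes included, was 21.7 per Mb inside and 28.0 outside. Positions inside ZNF genes were the poorest, with 5.055 peaks per Mb (3.48 to 7.10), against 26.7 (24.5 to 29.1) inside other coding genes outside the clusters. The 2 kb around ZNF gene ends held 40.7 per Mb (28.9 to 55.6), against 74.0 (65.7 to 83.2) around the ends of other genes outside the clusters. Between ZNF genes the density was 13.6 per Mb (11.2 to 16.4). Ends made up 6.07% of the cluster length and 21.1% of its peaks, gene bodies 41.35% and 17.8%, and the space between 52.6% and 61.1%. Of the 113 peaks between ZNF genes, 50 lay in or within 1 kb of another coding gene and 63 elsewhere.

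**Figure D3:**
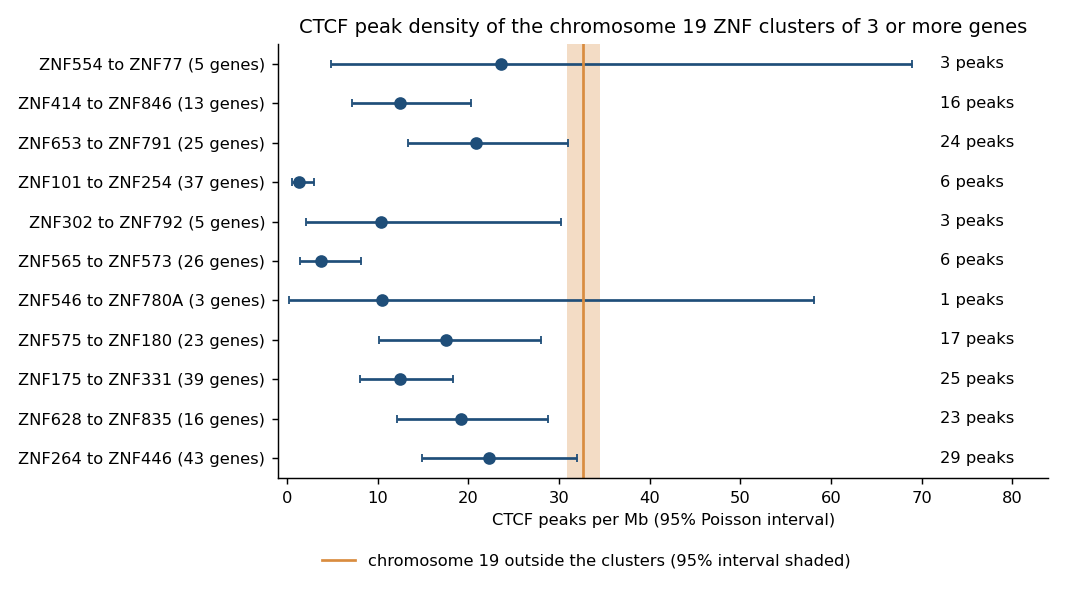
CTCF peaks per Mb (horizontal axis, points with 95% Poisson intervals) of the 11 chromosome 19 ZNF clusters of 3 or more genes, in order along the chromosome, with the number of peaks at the right. The line and shading give chromosome 19 outside the clusters, 32.7 per Mb (30.9 to 34.5); the intervals of the 2 lowest clusters, ZNF101 to ZNF254 and ZNF565 to ZNF573, end at 2.93 and 8.165.

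The cluster from ZNF101 to ZNF254, on the short arm next to the centromere, had the lowest density among the clusters of 3 or more genes. It spans chr19:19668153-24129968 and holds 37 ZNF genes, but had 6 peaks in 4.46 Mb, or 1.34 per Mb (0.493 to 2.93). The only end peak was at the start of ZNF14, with 8.07 normalised tags (4.76 to 13.5), and the only peak inside a gene, of 7.81, was in ZNF93, whose protein represses LINE-1 elements. The other 4, between genes, held 15.4, 32.5, 8.33 and 13.8. After the last of them, which lies between ZNF493 and ZNF429, no peak was called for 2647 kb up to the end of ZNF254, and 19 ZNF genes in a row lay wholly in that stretch. ZNF91, which restrains SVA elements, was 1822069 bp from the nearest peak and ZNF254 2550514 bp. ZNF100 had its nearest peak 239836 bp away. The 6 peaks had a median local background of 0.730, against 1.82 at peaks outside the clusters. Binding below the calling threshold is not recorded in such a list, and the part of read mapping near the centromere was not tested.

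The cluster from ZNF565 to ZNF573 (chr19:36182060-37779586, 26 genes) had 6 peaks as well, or 3.75 per Mb (1.38 to 8.165). Its highest peak, 26.8 normalised tags, was inside ZNF565, and the only peak at ends of numbered ZNF genes was the shared one of ZNF829 and ZNF568. A peak of 7.55 lay at ZFP14, another zinc finger gene of the cluster. ZNF383 and ZNF875 had 1 peak inside each, of 14.8 and 10.9. From the peak in ZNF875 to the end of ZNF573, 461.7 kb and 8 whole ZNF genes were without a peak. ZNF146, which consists almost wholly of zinc fingers, was 24117 bp from the nearest one.

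The cluster from ZNF264 to ZNF446 at the end of the long arm had the most genes with an end peak. It spans chr19:57191500-58489533, and 16 of its 43 ZNF genes had an end peak (37.2%, 22.98 to 53.3), which is 16 of all 41. The shares of all protein-coding genes (28.2%) and of other coding genes of chromosome 19 (27.4%) lie inside this interval. The cluster also held the most ZNF genes. Without this cluster, 25 of the remaining 203 ZNF genes had one (12.3%, 8.13 to 17.6). The 15 distinct end peaks were weak: over the 16 genes the median was 11.35 normalised tags, with 7.55 at ZNF584 as the lowest and 50.0 at ZNF329 as the highest. Besides the genes above, ZNF416 had 13.5, ZNF548 9.89, ZNF8 9.11, ZNF134 8.59, ZNF417 8.59 and ZNF805 8.07. Values at or above the list median were found at ZNF329 and ZNF274 alone. ZNF584 also had 2 peaks inside, of 18.7 and 10.2. The longest stretch without a peak, 207.4 kb between ZNF256 and ZNF329, was the shortest such maximum among the 8 clusters of 10 or more genes. None of the 13 other coding genes inside this cluster had an end peak, and ZNF132 was among its 27 ZNF genes without one.

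The cluster from ZNF653 to ZNF791 (chr19:11483429-12633834, 25 genes) was uneven along its length. Its 24 peaks gave 20.8 per Mb (13.3 to 31.0), but 23 of them lay from ZNF653 to ZNF20, and after ZNF20 no peak was called for 422.9 kb, over 9 whole ZNF genes. ZNF653, ZNF627, ZNF823, ZNF491, ZNF763 and ZNF20, all in the stretch up to ZNF20, were the 6 genes with an end peak. Of the 15 peaks between genes, 14 lay outside other coding genes. ZNF69 held 2 peaks inside, the second of them at the end of ZNF763, which overlaps it. ZNF136 had no end peak, and the last peak, of 50.2, closed the peak-free stretch below ZNF490.

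In the cluster from ZNF175 to ZNF331 (chr19:51571283-53580269, 39 genes), 25 peaks gave 12.4 per Mb (8.05 to 18.4). End peaks were at ZNF616, ZNF611, ZNF765 and ZNF761, and a further 12.5 normalised tags lay inside ZNF765. Inside ZNF577 there were 2 peaks, of 10.2 and 24.5, in or beside the FPR3 gene, and inside ZNF331, an imprinted gene, 2 of 8.59 and 19.8. The longest peak-free stretch, 478.6 kb, ran from above ZNF836 to the start of ZNF611 and held 11 whole genes, ZNF808, ZNF701 and ZNF83 among them. ZNF160 had no end peak.

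The cluster from ZNF575 to ZNF180 (chr19:43530835-44500522, 23 genes) held 17 peaks, or 17.5 per Mb (10.2 to 28.0), with end peaks at ZNF575, ZNF221, ZNF284 and ZNF180. Of its 13 peaks between ZNF genes, 10 lay in or within 1 kb of another coding gene. From the start of ZNF284 to the start of ZNF180, 427.8 kb with 10 whole ZNF genes had none, and ZNF112 was among those without. The cluster from ZNF628 to ZNF835 (chr19:55476617-56671757, 16 genes) had 23 peaks, or 19.2 per Mb (12.2 to 28.8). Its strongest, 233.2 normalised tags (212 to 256), was at CCDC106, and 13 of 19 peaks between ZNF genes lay at or in another coding gene. ZNF865 (43.5) and ZNF787 (8.07) had end peaks, ZNF581 and ZNF444 1 peak inside each, and the final 321.1 kb to ZNF835, with 7 whole ZNF genes, had none.

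The cluster from ZNF414 to ZNF846 (chr19:8509678-9786160, 13 genes) had 16 peaks, or 12.5 per Mb (7.15 to 20.3), of which 15 were between ZNF genes. The highest, 120.5 normalised tags, was at ADAMTS10, an extracellular protease gene. Its 1 end peak, of 12.0, was at ZNF266, ZNF121 had none, and the longest stretch without a peak, 385.6 kb, lay between ZNF414 and ZNF317. Among the small clusters, ZNF554 to ZNF77 had 3 peaks, with the one at ZNF554, 1 of 12.0 inside ZNF556 and none at ZNF555 or ZNF77. ZNF302 to ZNF792 had 3, with 8.33 inside ZNF599 and none at the ends of its 5 genes, ZNF181 included. ZNF546 to ZNF780A had 1, of 7.55 at the start of ZNF546. With counts this low their intervals, such as 4.87 to 69.0 per Mb for ZNF554 to ZNF77, include the density outside the clusters or nearly reach it.

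The maps of peaks along the clusters show where CTCF stood relative to the genes. Long peak-free stretches were a common feature: of 20 stretches over 200 kb without a peak on chromosome 19, 14 held at least 1 whole ZNF gene, and together the 20 held 107 of the 246 ZNF genes (43.5%), against 28 of the 1205 other coding genes (2.32%). Neighbouring peaks of chromosome 19 lay a median of 19.7 kb apart. Of the 7 ZNF genes that stand alone, ZNF536, a long gene that restrains neuronal differentiation, held 8 peaks inside its 487995 bp, of 7.29 to 40.3 normalised tags, and 1 of them, of 33.6, was on an inner start site. ZNF507 had 11.2 at its start, and ZNF473, which works in histone messenger RNA processing, had 1 inside, of 16.4. ZNF574 and ZNF526, with the B cell factor gene POU2F2 between them, formed a pair with 10 peaks in 0.162 Mb, 9 of them at or in another coding gene, POU2F2 or DEDD2, and the strongest, of 190.8, at POU2F2.

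**Figure D4:**
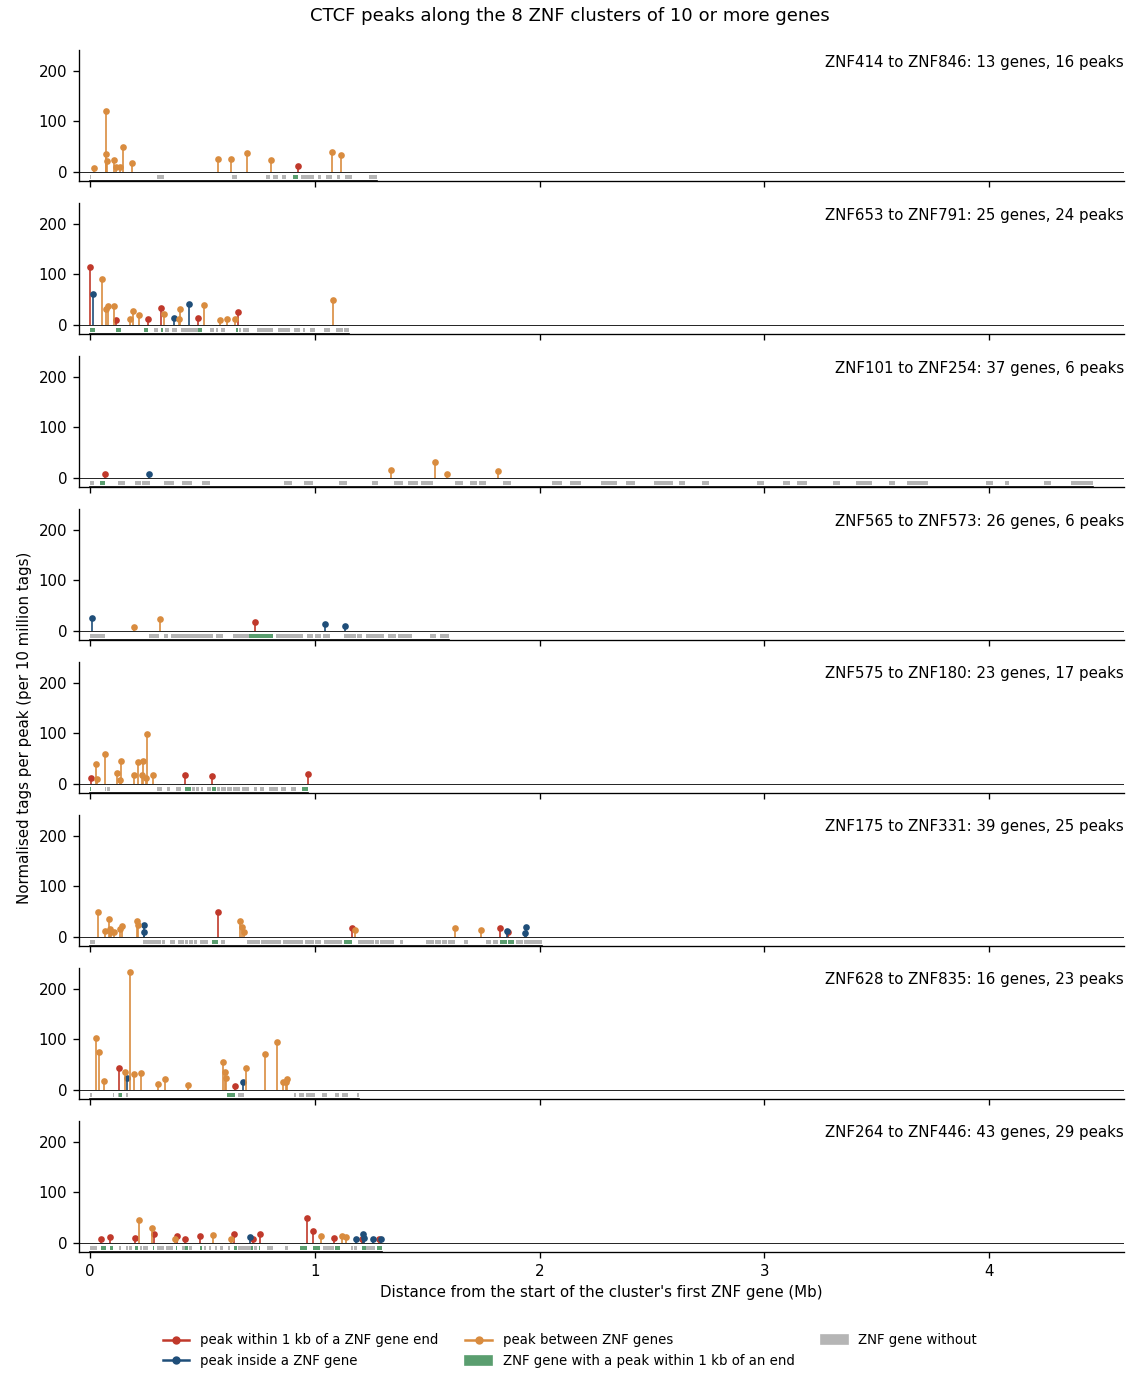
CTCF peaks along the 8 chromosome 19 ZNF clusters of 10 or more genes: height gives normalised tags per peak (vertical axis), position the distance from the start of the first ZNF gene (Mb, horizontal axis), and boxes under the line are ZNF genes. The cluster from ZNF101 to ZNF254 is the longest and has 6 peaks, and the cluster from ZNF264 to ZNF446 has 29.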

How the data were processed

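CTCF ChIP-seq was done in MDA-MB-435 cells. Bowtie2, HOMER and the build hg38 come from the submitters' processing notes; for the tools' versions, they were not given in the sources used here. Peaks were called with HOMER's factor style on asynchronous replicate 1, naming no control library, at a false discovery rate of 0.001, 4-fold over the surrounding 10 kb and at most 1 tag per position, per the file headers. Weaker binding than that is not listed. Tag signal, as deposited by the authors, is tags per peak scaled to 10000000. The deposited focus ratio is a fraction, the deposited score is the caller's own, and the deposited fold over the local region and clonal fold are ratios, all per the file headers.

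Genes came from RefSeq (GRCh38.p14). A gene had an end peak when a peak centre lay within 1 kb of either annotated end. Cluster length is the span of its ZNF genes plus 1 kb on each side. The remainder of chromosome 19 leaves out 1 stretch of 3.2 Mb with neither gene nor peak. Local background is normalised tags over the local fold. Depth was 19210460 tags. Intervals are exact Poisson for tags and densities and Clopper-Pearson for shares. The 3 readthrough genes and 1 divergent transcript with a ZNF symbol were left out of the ZNF genes. The readthrough gene ZNF765-ZNF761 counted among the other coding genes.

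Named genes are those of the 20 end peaks of most tags, of shared peaks, and per cluster of 3 or more genes the one with the highest end peak, the one with most inner peaks, those around the longest peak-free stretch and the alphabetically first without an end peak; others were added after their values were seen. The members, lists and clusters were chosen with earlier results of these data known. The planned count of zinc fingers in the proteins was not made. The counting was tested on simulated peaks. Computation used scipy 1.17.1, numpy 2.4.6 and pandas 2.3.3 under Python 3.11.15, and matplotlib 3.10.9 for plots.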

Additional observations from a re-analysis of the deposited data

How the results depend on the processing

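The number of chromosome 19 ZNF genes with an end peak, 41, was 31 with a window of 500 bp, 40 with symbols of ZNF and a number only, 42 with readthrough genes added, 41 with any overlap, and 39 counted as distinct peaks. At 500 bp the share was 12.6% (8.725 to 17.4), against 17.2% (15.1 to 19.4) of other coding genes of chromosome 19. These intervals overlap, unlike those at 1 kb. It was 74 with a window of 5 kb (30.1%, against 57.8% of other coding genes of chromosome 19) and 10 with peaks at or above the median score. The peak density, 11.7 per Mb, was 11.3 with clusters split over 250 kb, 11.65 with peaks within 1 kb merged and 11.8 with symbols of ZNF and a number only. It was 14.1 with clusters split over 1 Mb, and 5.32 with peaks at or above the median score, against 21.6 outside the clusters. The median of peaks at ZNF gene ends over that at other genes' ends of chromosome 19 was 0.44 in tags, 0.448 in score and 0.717 in fold over the local region. Alternatives added after seeing the data gave 25 of 203 genes without the cluster from ZNF264 to ZNF446, and, without the cluster from ZNF101 to ZNF254, 40 of 209 genes and 15.8 peaks per Mb. The cause of these shifts was not tested, except that fewer peaks or genes enter under a stricter score or without a cluster.

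No paired analysis was possible because 1 peak list was used and no result comes from a test between groups. Strong peaks are measured more precisely than weak ones, and ZNF end peaks near 8 normalised tags lie close to the lowest value of the list, 6.51, so absence of a peak is not absence of binding.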

Other observations

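Of 19 numbered ZNF pseudogenes on chromosome 19, 1 had a peak within 1 kb of an end. No share over other pseudogenes is given beside it, so this count cannot be called low or high. At the borders of the clusters, no peak lay in the 100 kb beyond the last gene of the clusters from ZNF101 to ZNF254, ZNF565 to ZNF573 and ZNF628 to ZNF835, while the 100 kb before their first genes held 2, 4 and 3 peaks. These 3 clusters were picked because they had none there. Each of the other clusters and single genes held from 1 to 8 peaks in the 100 kb beyond the last gene.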
